A study of Rattus norvegicus with 6 samples.

Results

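Fibroblasts and the interstitial cells of the renal medulla lay down and remodel the matrix between tubules and vessels, and 10 genes widely used to follow them were examined here. They are Vim, Dcn, Lum, Thy1, S100a4, Postn, Tnc, Sparc, Fbln1 and Mfap4, out of 14217 genes named on the array. Every probe set that carried one of these symbols alone was taken, which gave 13 of the 31042 probe sets tested, with 2 probe sets each for Sparc, Thy1 and Fbln1. The genes were listed by name, with earlier results of these data known.

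RNA was measured on 6 Affymetrix rat expression arrays, 3 for each of 2 cell fractions of the inner medulla of male Sprague-Dawley rats. The IMCD fraction was enriched in inner medullary collecting duct cells by low-speed centrifugation, and the nonIMCD fraction was collected from the supernatant. Both fractions shared the same pretreatment, an intraperitoneal dose of 1 mg furosemide (a loop diuretic) given 30 min before death, and the same tissue digestion by collagenase B and hyaluronidase (75 min, 37 °C). Rats of 10 weeks are given for 5 of the arrays and rats of 6 weeks for IMCD replicate 1. The study used 7 rats and roughly 3 µg of total RNA per array, and the sources used here do not say which rats went into which array. Both fractions are mixtures, and no fibroblasts were sorted. In such bulk samples, fewer cells of a type and less RNA per cell cannot be told apart.

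Vimentin, encoded by Vim, is the intermediate filament of mesenchymal cells and is also found in endothelium and leukocytes. Dcn and Lum encode decorin and lumican, small leucine-rich proteoglycans that bind collagen fibrils. Sparc, Tnc and Postn encode matricellular proteins, which sit in the matrix and modulate how cells attach to it, and Fbln1 and Mfap4 encode proteins that associate with elastic fibres. Thy1 encodes a surface glycoprotein of fibroblasts that in rats also marks neurons and thymocytes. S100a4, also called fibroblast-specific protein, encodes a small calcium-binding protein that many other cells make too.

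Of the 10 genes 4 differed between the fractions. Vim, Sparc and Tnc were lower in IMCD, as were 15.7% of all genes, and S100a4 was higher there, as were 10.0%. The RefSeq promoters of these 4 genes are shown because they are the members that differed, 3 of them in 1 direction and 1 in the other. RefSeq's GRCr8 table held a promoter for 6 of the 10 members, and what is printed is the 250 bases before the annotated start, 5′ to 3′ on the strand of the gene. These windows lie at chr17:81577011-81577260 (Vim, plus strand), chr10:40038817-40039066 (Sparc, minus strand), chr5:82476132-82476381 (Tnc, minus strand) and chr2:178388279-178388528 (S100a4, plus strand). Capitals mark matches on either strand to the TATA box element TATAAA, the CAAT box element CCAAT, the GC box element GGGCGG or the AP-1 element TGACTCA, and no match overlapped another.
Vim: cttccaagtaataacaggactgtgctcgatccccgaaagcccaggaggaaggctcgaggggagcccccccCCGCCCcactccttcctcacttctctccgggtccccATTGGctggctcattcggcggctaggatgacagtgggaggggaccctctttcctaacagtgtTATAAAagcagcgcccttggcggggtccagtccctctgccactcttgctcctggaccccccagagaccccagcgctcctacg
Sparc: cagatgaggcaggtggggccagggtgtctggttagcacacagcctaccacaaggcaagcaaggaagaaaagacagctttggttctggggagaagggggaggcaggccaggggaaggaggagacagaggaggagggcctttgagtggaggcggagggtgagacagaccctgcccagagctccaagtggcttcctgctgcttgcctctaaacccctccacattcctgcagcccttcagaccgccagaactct
Tnc: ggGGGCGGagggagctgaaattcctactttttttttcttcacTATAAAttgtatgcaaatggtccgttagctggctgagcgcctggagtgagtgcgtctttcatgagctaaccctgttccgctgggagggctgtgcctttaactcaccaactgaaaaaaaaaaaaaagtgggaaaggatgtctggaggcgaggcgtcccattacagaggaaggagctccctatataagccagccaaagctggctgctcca
S100a4: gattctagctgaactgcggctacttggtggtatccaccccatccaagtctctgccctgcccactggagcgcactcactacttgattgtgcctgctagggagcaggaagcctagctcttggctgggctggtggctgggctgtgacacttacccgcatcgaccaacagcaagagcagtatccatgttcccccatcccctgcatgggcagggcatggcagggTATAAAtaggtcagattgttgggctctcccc

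TATAAA was matched in the Vim, Tnc and S100a4 windows, from 82, 208 and 31 bases before the start, and 12.9% of the 33469 promoters in the table hold it. CCAAT was matched in the Vim window (34% of all promoters) and GGGCGG in the Vim and Tnc windows (30.5%). TGACTCA, held by 4.05% of all promoters, was matched in none of the 4, and the Sparc window held none of the 4 motifs. The search and the shares took exact letters at any place in the window and on either strand, so a match need not be a working element. The Tnc window also holds tatataa nearer the start than its TATAAA match, and those letters were not marked. These letters describe the windows and are not binding measurements.

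The values are the authors' scaled intensities, on a linear scale. Fractions were compared as log2(intensity + 16) with limma over all probe sets, and a Benjamini-Hochberg adjusted p under 0.05 was the threshold. All differences are IMCD minus nonIMCD on that scale, with the standard error (SE) of the fit. Where nothing says that arrays came from separate animals, the p-values measure the spread between these arrays, which may be technical. An intensity of 78.4, the highest value of any negative control probe set (TrpnX) on any array, served as the floor under which a signal was treated as not above background.

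By limma 4 of 13 member probe sets were lower in IMCD, against 13.4% of all probe sets tested, and 1 of 13 was higher, against 8.58%. Every IMCD array lay under every nonIMCD array for 8 of the 13, against 24.9% of all probe sets, and over every nonIMCD array for 1, against 17.3%. The 8 count Sparc by both its probe sets. They also include Postn and the dimmer Thy1 probe set, with most arrays at or under the floor. Counted by gene, with the brightest probe set standing for each, 3 of 10 were lower (15.7% of all genes) and 1 was higher (10.0%). Without overlap 6 of the 10 genes were lower and 1 was higher, a count whose share over all genes was not taken. The median difference was -1.62 over the 10 genes and -0.09 over all genes. With members that lay under the floor throughout a fraction counted at their bound against it, or at 0 where no bound could be had, the members' median was -1.22. Of the 13 probe sets, 5 were above the floor on all 6 arrays, those of Vim, Dcn, S100a4 and both of Sparc, and the other 8 were at or under it on at least 1 array.

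The scaling of the arrays set the balance of directions over all probe sets but not the calls on members. With each array centred on its median, the shares of all probe sets called were 8.54% lower and 17.4% higher, and after quantile normalization 10.2% and 11.1%. The median of all probe sets was -0.10 as deposited, 0.19 after median centring and 0.06 after quantile normalization. Under both, 4 member probe sets were lower and 1 was higher.

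**Figure D1:**
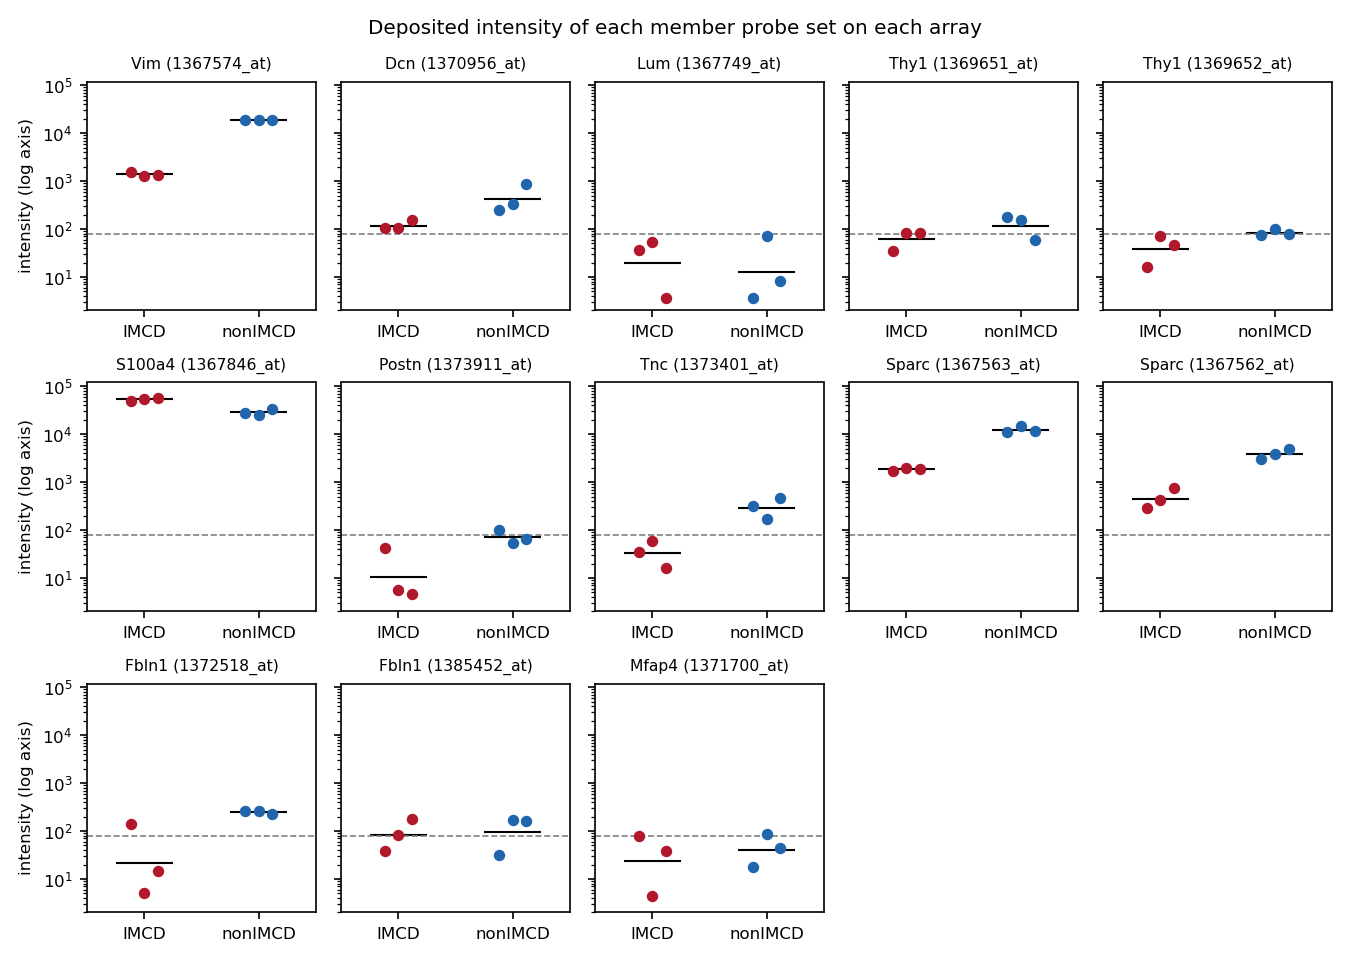
Deposited intensity (log axis) of the 13 member probe sets on the 3 IMCD arrays (red) and the 3 nonIMCD arrays (blue). Black bars are geometric means and the dashed line is the floor of 78.4. Vim and both Sparc probe sets separate the fractions far above the floor, S100a4 is higher on all 3 IMCD arrays, and Lum lies under the floor on all 6 arrays.

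The filament gene Vim had intensities of 1586, 1298 and 1333 on the IMCD arrays, against 18696, 18534 and 18679 on the nonIMCD arrays. The 3 nonIMCD values lay close together and the groups were far apart. Vim was 13.2-fold lower in IMCD, a difference of -3.72 ± 0.13 (SE, limma adjusted p = 0.000202), and 0.66% of all probe sets had a difference below it. Without any 1 array the difference stayed between -3.81 and -3.67.

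Sparc, whose product binds collagen and modulates cell shape, gave the same direction on both probe sets. Its brighter probe set (1367563_at) had 1708, 2004 and 1872 in IMCD, against 11129, 14529 and 11439 in nonIMCD. The dimmer one (1367562_at) had 282, 416 and 748 in IMCD, against 3097, 3862 and 4844 in nonIMCD. No IMCD array reached a nonIMCD array on either. The differences were -2.71 ± 0.16 (limma adjusted p = 0.000426) and -3.07 ± 0.38 (SE, adjusted p = 0.00359), which are 6.56-fold and 8.42-fold lower levels in IMCD.

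Tnc, encoding the anti-adhesive matrix protein tenascin C, was lower in IMCD from a weaker signal. It had 35.3, 60.4 and 16.2 in IMCD, against 320, 169 and 458 in nonIMCD. All 3 IMCD values were under the floor and all 3 nonIMCD values above it, so the level in IMCD was at least 3.72-fold lower, taking the mean log2 value of nonIMCD against the floor. The fitted difference was -2.62 ± 0.46 (SE, limma adjusted p = 0.0121). It lost its call with the replicate number as a block (adjusted p = 0.0648).

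S100a4 ran against these genes. Its intensities were 50471.5, 54691 and 58116 in IMCD, against 27894.5, 25113 and 33016 in nonIMCD, with no overlap. The difference was 0.93 ± 0.15 (SE, limma adjusted p = 0.00989), a 1.91-fold higher level in IMCD, and median centring gave 1.22, quantile normalization 1.04. The highest intensity of any probe set was between 70016 and 111657 on each array, so S100a4 lay among the brightest signals. Whether a difference is measured in full at such intensities was not tested.

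The collagen-binding proteoglycans did not pass. Dcn had 106, 103 and 151 in IMCD, against 247, 328 and 887 in nonIMCD, so every IMCD array was below every nonIMCD array. The nonIMCD values were spread, with replicate 3 far above the other two. The difference was -1.69 ± 0.48 (SE, limma adjusted p = 0.0553), with a 95% interval of -2.87 to -0.52. It was -1.16 (adjusted p = 0.0341) without nonIMCD replicate 3, -2.05 (adjusted p = 0.0499) without nonIMCD replicate 1, and adjusted p = 0.0492 with the replicate number as a block.

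Lum, the neighbour of Dcn on chromosome 7 in the GRCr8 annotation, was under the floor throughout. It had 35.7, 54.8 and 3.66 in IMCD, against 3.69, 70.2 and 8.33 in nonIMCD, and the groups overlapped. The fit gave 0.27 ± 0.72 (SE, limma adjusted p = 0.832).

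Postn, encoding periostin, was dim in both fractions. It had 41.7, 5.60 and 4.58 in IMCD, against 98.6, 53.6 and 64.4 in nonIMCD. All 3 IMCD arrays and 2 of 3 nonIMCD arrays were at or under the floor, although the groups did not overlap. The difference was -1.55 ± 0.45 (SE, limma adjusted p = 0.0603). It passed without IMCD replicate 1, the array labelled 6 weeks (-2.03, adjusted p = 0.0116), and with the replicate number as a block (adjusted p = 0.0368).

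Among the elastic fibre genes, the 2 probe sets of Fbln1 gave different values. The probe set 1372518_at had 137, 5.11 and 14.7 in IMCD, against 257, 263 and 222 in nonIMCD. Replicate 1 of IMCD stood above the other two, which were under the floor, and the 3 nonIMCD arrays lay close together above it. The difference was -2.51 ± 0.74 (SE, limma adjusted p = 0.0614), and -3.37 (adjusted p = 0.00308) without IMCD replicate 1.

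The other Fbln1 probe set, 1385452_at, had 39.0, 84.1 and 176 in IMCD, against 30.9, 169 and 162 in nonIMCD, with the groups mixed. Its difference was -0.18 ± 0.70 (SE, limma adjusted p = 0.882) and turned to 0.10 under both median centring and quantile normalization. The gap between both probe sets' differences, -2.32, had p = 0.3 in a two-sided exact permutation test over the arrays. Over the 3 genes with 2 probe sets the adjusted p-values were 0.6 to 0.8, and the smallest p this design allows is 0.1.

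Mfap4 had 78.5, 4.31 and 39.0 in IMCD, against 17.8, 85.4 and 44.6 in nonIMCD. Both groups straddled the floor and overlapped, with a difference of -0.32 ± 0.67 (SE, limma adjusted p = 0.774).

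Thy1 was near the floor on both probe sets. Its brighter one (1369651_at) had 34.9, 83.2 and 83.5 in IMCD, against 174, 151 and 58.5 in nonIMCD, and the groups overlapped. The dimmer one (1369652_at) had 16.2, 70.2 and 47.5 in IMCD, against 73.4, 98.2 and 79.9 in nonIMCD, without overlap. Neither passed, with differences of -0.74 ± 0.45 (SE, limma adjusted p = 0.302) and -0.82 ± 0.37 (SE, adjusted p = 0.181).

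**Figure D2:**
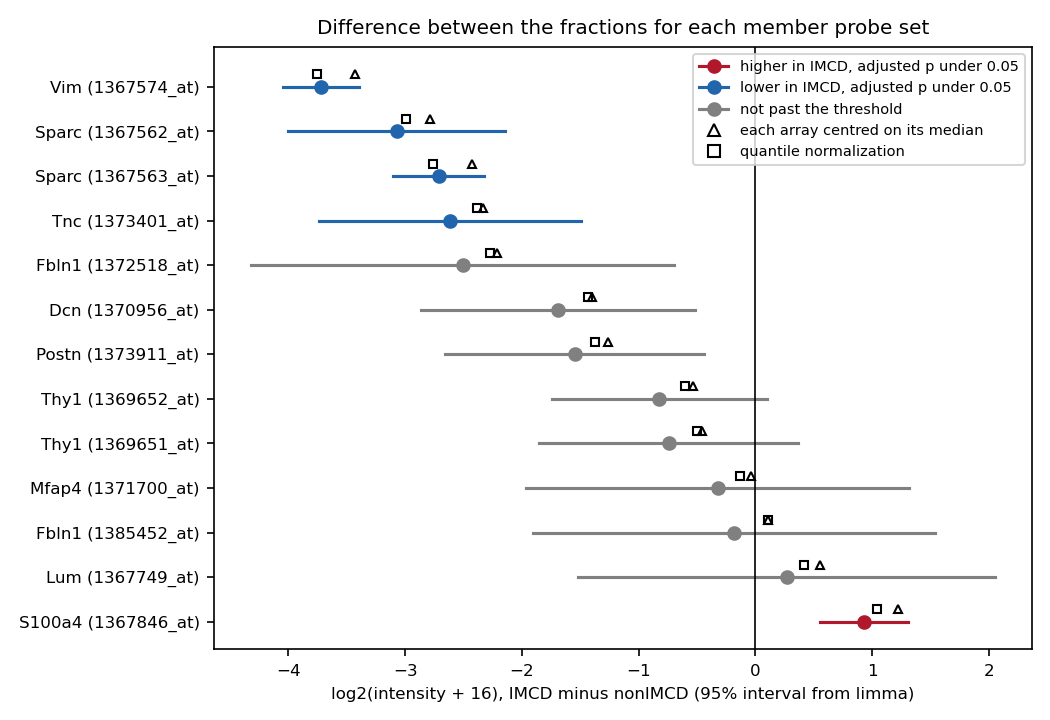
Difference between the fractions (IMCD minus nonIMCD, log2 scale) for each member probe set, as points with 95% intervals from limma. Open triangles and squares are the same difference after median centring and quantile normalization. S100a4 is the 1 probe set past the threshold to the right of 0, at 0.93, and Vim, both Sparc probe sets and Tnc are past it on the left, at -3.72 to -2.62.

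The size of the dim members' differences depended on the pseudocount. With 1 or 64 in place of 16, Tnc gave -3.11 or -1.85, Fbln1 (1372518_at) -3.39 or -1.59 and Postn -2.61 or -0.76. For Vim the values were -3.73 and -3.67. With 64, Dcn, Fbln1 (1372518_at) and Postn passed (adjusted p = 0.0409, 0.0242 and 0.0423).

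Other matrix genes of the same families were set beside the members, from lists drawn up with earlier results of these data known. The counts of this and each later list are to be read beside all genes, of which 15.7% were lower and 10.0% higher. Besides Dcn and Lum, 9 small leucine-rich proteoglycan genes were measured, with a median of -0.81 (-0.54 with genes under the floor at their bound). Of them 3 passed as lower, 1 as higher and 5 in neither direction. Biglycan (Bgn) was the largest, with 600, 293 and 596 in IMCD, against 5042, 4741 and 3908 in nonIMCD, a difference of -3.22 ± 0.31 (SE, limma adjusted p = 0.00165). Aspn, encoding asporin, differed by -2.80 (adjusted p = 0.00329) and Ecm2 was at least 2.11-fold lower (adjusted p = 0.0471). Omd, encoding osteomodulin, was the higher one, with 437, 440 and 356 in IMCD, against 198, 124 and 195 in nonIMCD (1.20, adjusted p = 0.0131). Bgn and Omd were called in opposite directions, although with the replicate number as a block Omd and Ecm2 did not pass (adjusted p = 0.0504 and 0.107). Without IMCD replicate 1 they did not pass either (adjusted p = 0.0504 and 0.0527), and Ecm2 had adjusted p = 0.0726 with median centring and 0.0884 with quantile normalization.

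The 17 other matricellular genes had a median of -0.24 (0 with genes under the floor at their bound), with 7 passing as lower, 0 as higher and 10 in neither direction. Under median centring and quantile normalization 6 were lower and 3 higher. Sparcl1, the relative of Sparc, had 228, 215 and 306 in IMCD, against 2379, 3350 and 4221 in nonIMCD, a difference of -3.63 ± 0.26 (SE, limma adjusted p = 0.000672). Ccn2, encoding connective tissue growth factor, differed by -3.06 (adjusted p = 0.000803) and the Sparc relative Smoc2 by -2.93 (adjusted p = 0.00181) on the brightest of its probe sets, while the others did not pass (adjusted p = 0.34 and 0.0725). Tgfbi, encoding an adhesion protein induced by TGF-beta, was at least 8.83-fold lower (adjusted p = 0.00344).

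For 22 other fibulin and elastic microfibril genes the median was -0.92 (-0.79 with genes under the floor at their bound). Of them 11 passed as lower, 2 as higher and 9 in neither direction. With median centring 8 were lower, with quantile normalization 9 and with the replicate number as a block 10, each with 2 higher. Without IMCD replicate 1, 9 were lower and 1 was higher. The fibulin Efemp1 had 840, 719 and 775 in IMCD, against 6190, 4779 and 4626 in nonIMCD (-2.71, limma adjusted p = 0.00046). Ltbp1, which anchors latent TGF-beta, differed by -2.51 (adjusted p = 0.000399) and fibrillin 1 (Fbn1) by -2.49 (adjusted p = 0.00143). Fibrillin 2 (Fbn2) was the largest in the other direction, with 218, 148 and 135 in IMCD and values at or under 17.5 on all 3 nonIMCD arrays. Against the floor it was at least 2.08-fold higher in IMCD (adjusted p = 0.00123). The fibrillins Fbn1 and Fbn2 were called in opposite directions.

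The list of fibroblast identity genes gave 6 lower, 0 higher and 8 not passing of 14 measured, with a median of -0.97. The chemokine Cxcl12 had 1211, 1280 and 1266 in IMCD, against 11916, 8952 and 7920 in nonIMCD (-2.90, limma adjusted p = 0.00051). The collagen Col3a1 differed by -2.83 (adjusted p = 0.000399), Col1a2 by -2.46 (adjusted p = 0.0429), and the laminin chain Lama2 was at least 1.96-fold lower (adjusted p = 0.0122). The count varied with the setting: 4 were lower with 1 higher under median centring, 3 lower after quantile normalization, 2 lower with the replicate number as a block and 3 lower without IMCD replicate 1. Under the block Col1a2 and Lama2 did not pass (adjusted p = 0.109 and 0.0574), and Col1a2 did not pass without IMCD replicate 1 (0.0526), with median centring (0.0552) or with quantile normalization (0.0664). The dimmer probe set of Col1a2 was lower in IMCD too (adjusted p = 0.000776).

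Of the 8 measured filament partners of Vim, 2 were lower, 1 was higher and 5 passed in neither direction, with a median of -0.33. Over all genes 15.7% were lower and 10.0% higher, and counts this small cannot set the list apart from them. Under median centring or quantile normalization 1 was lower and 3 were higher. Nestin (Nes), which assembles with vimentin, had 259, 332 and 303 in IMCD, against 747, 814 and 852 in nonIMCD (-1.39, limma adjusted p = 0.00208). Desmin (Des), the muscle-type filament, differed by -1.30 (adjusted p = 0.0324), with adjusted p = 0.062 under median centring, 0.0783 after quantile normalization, 0.0987 with the block and 0.0858 without IMCD replicate 1. The nuclear lamin gene Lmna was higher (0.88, adjusted p = 0.0104), with a dimmer probe set at 0.51 (adjusted p = 0.26).

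S100a4 was compared with 12 other measured S100 genes, small calcium-binding proteins of which several lie beside it on chromosome 2. Their median was 0.02, and 3 passed as higher in IMCD (10.0% of all genes), 2 as lower (15.7%) and 7 in neither direction. With median centring 5 were higher and 2 lower, and with the block or without IMCD replicate 1, 2 were higher and 2 lower. S100a5, which follows S100a4 in the GRCr8 annotation, had 1264, 1022 and 1615 in IMCD, against 395, 480 and 467 in nonIMCD (1.49, limma adjusted p = 0.00516). S100a13 differed by 1.15 (adjusted p = 0.00282). S100a8, a granulocyte protein, had 4.35, 4.31 and 8.25 in IMCD, against 95.8, 158 and 79.3 in nonIMCD. With all IMCD values under the floor it was at least 1.35-fold lower (adjusted p = 0.00186), and S100g was under the floor on all 3 IMCD arrays and 2 of 3 nonIMCD arrays, so its call (adjusted p = 0.0147, and 0.0597 with the block) comes with no fold.

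Some S100 genes were named after their values were seen. S100a16 was the third higher one (0.50, limma adjusted p = 0.0366, and 0.0762 with the block). The differences of S100a6, S100a10 and S100a11 were 0.00 (SE 0.14, limma adjusted p = 0.991), 0.00 (SE 0.14, adjusted p = 0.995) and -0.02 (SE 0.15, adjusted p = 0.932). S100a6 and S100a11 were about as bright as S100a4 in IMCD. Their mean intensities were 52288 and 53970 in IMCD, against 52358 and 55125 in nonIMCD. Whether a difference would show in full at that brightness was not tested. The neighbour S100a3 gave 0.77 (adjusted p = 0.0647) and passed under median centring and quantile normalization (adjusted p = 0.0208 and 0.0244). S100a14, also in that stretch of chromosome 2, gave 2.13 (adjusted p = 0.00158) on a probe set whose probes may match more than 1 transcript.

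**Figure D3:**
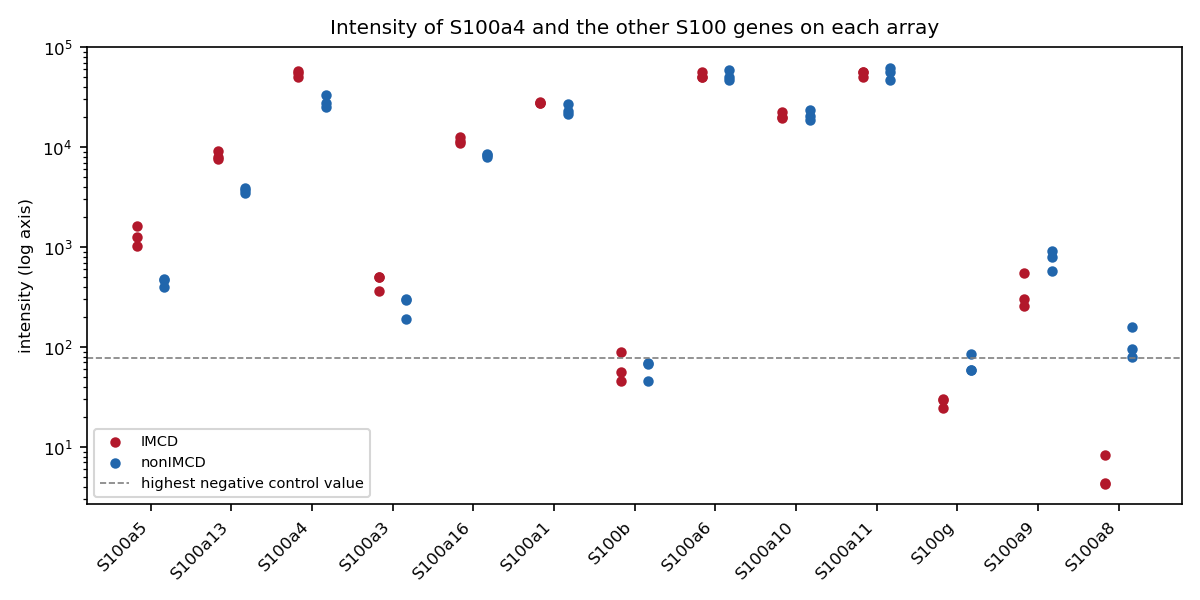
Intensity (log axis) of S100a4 and 12 other S100 genes on the 3 IMCD arrays (red, left of each pair) and the 3 nonIMCD arrays (blue), ordered by their difference. S100a5, S100a13 and S100a4 stand higher in IMCD, S100a6, S100a10 and S100a11 overlap, and S100a8 is under the floor of 78.4 (dashed) on all 3 IMCD arrays.

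Markers of other cells that the fractions could hold also differed. All 12 measured endothelial genes were lower in IMCD, with a median of -2.06 and a summed intensity of 16265 to 20165 in IMCD, against 70010 to 74997 in nonIMCD. Von Willebrand factor (Vwf) differed by -4.16 and Cldn5 by -3.54 (limma adjusted p = 0.000526 and 0.000399). No endothelial marker was at or under the floor on all arrays of either fraction.

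Leukocyte genes were lower for 13 of 14, with a median of -5.52, and for 14 of 14 with the replicate number as a block. The remaining gene, Cd3e, had -2.09 on its brighter probe set (limma adjusted p = 0.149, and 0.014 with the block) and was lower on its dimmer one (adjusted p = 0.00359), at least 7.11-fold. Their summed intensity was 2170 to 3029 in IMCD, against 91505 to 118436 in nonIMCD, and Cd3d, Itgam and Itgax were at or under the floor on all 3 IMCD arrays. Aif1 was under it on all 3 by its brighter probe set and above it on all 3 by its dimmer one, which did not pass (0.51, adjusted p = 0.558). The 3 thin limb genes were also lower, with a median of -3.48 and a sum of 4571 to 7194 in IMCD, against 59569 to 82221 in nonIMCD. Of these, Epha7 was under the floor on all 3 IMCD arrays by its brighter probe set and on 1 of 3 by the dimmer one.

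Pericyte and smooth muscle genes gave 4 lower, 0 higher and 6 not passing of 10, with a median of -0.18 as deposited, 0.10 with median centring and 0.08 with quantile normalization. With median centring 3 were lower and 2 higher. Tagln, Mcam and Rgs5 differed by -2.51, -2.04 and -1.87 (limma adjusted p = 0.0202, 0.00318 and 0.00273). Their summed intensity was 2699 to 3368 in IMCD, against 4265 to 5459 in nonIMCD, and Lmod1 was at or under the floor on all 3 nonIMCD arrays. Collecting duct genes ran the other way, with 12 of 13 higher, a median of 1.24 and a sum of 249310 to 257093 in IMCD, against 119648 to 146911 in nonIMCD. The remaining gene was the water channel gene Aqp2, at 0.29 (limma adjusted p = 0.261), and its arrays overlapped. All 13 passed as higher under median centring and quantile normalization, and 11 with the replicate number as a block.

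Vim at -3.72 lay beyond the endothelial and thin limb medians (the latter -3.48, over 3 genes) and short of the leukocyte median. The brighter Sparc probe set at -2.71 lay beyond the endothelial median and short of the thin limb and leukocyte medians. Both also lay beyond the fibroblast identity median of -0.97. The lists were spread, and the endothelial gene Vwf at -4.16 and the thin limb gene Bst1 at -4.39 lay beyond Vim. Tnc was not placed among these medians, since its IMCD values were under the floor. The members called did not share 1 direction, since S100a4 was higher in IMCD. Vim, Sparc and Dcn, the other genes above the floor on all 6 arrays, had every IMCD array under every nonIMCD array, although Dcn did not pass. Lum was under the floor on all 6 arrays and Postn, Mfap4 and Thy1 were near it, so these genes can say little about a shared direction. Since no fibroblasts were sorted, whether each gene marks fibroblasts here was not tested. The part of endothelial cells, leukocytes, thin limbs or fibroblasts in the Vim, Sparc and Tnc differences was not tested.

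**Figure D4:**
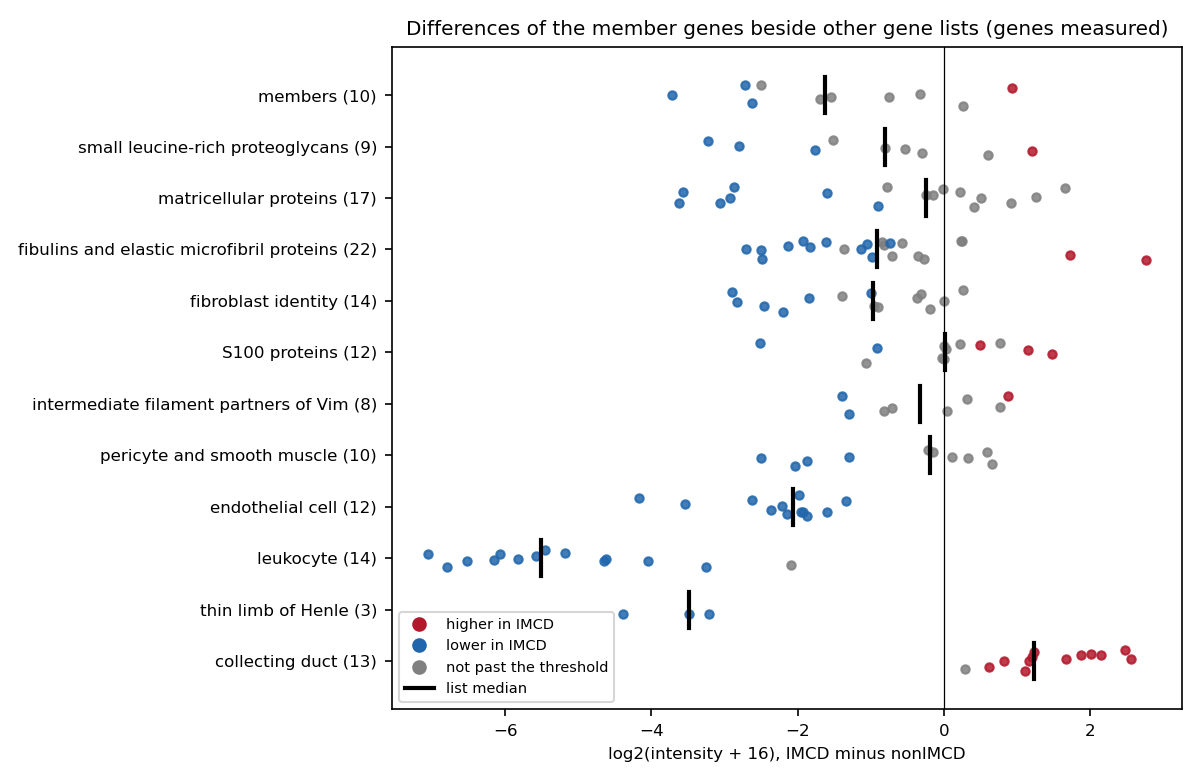
Difference between the fractions (IMCD minus nonIMCD, log2 scale) for each measured gene of the 10 members and of 11 other lists, with the list median as a black bar. Colours give limma's call. The members' median is -1.62 (-1.22 with genes under the floor at their bound). It lies between the matrix and fibroblast identity lists (-0.97 to -0.24) and the endothelial list (-2.06).

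A measure of RNA integrity also stood apart between the fractions. The log2 ratio of 3′ to 5′ signal, taken as the mean over the Actb, Gapdh and hexokinase control probe sets, averaged 0.69 ± 0.03 in IMCD and 1.35 ± 0.14 in nonIMCD (SD, n = 3 each). Median intensities were 270.3 to 273 in IMCD and 330 to 341 in nonIMCD. Log2 values correlated across probe sets at r = 0.956 to 0.966 within a fraction and 0.901 to 0.910 between fractions. The part of RNA integrity in the members' differences was not tested.

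The genes whose 6 values, centred on their own mean, ran closest to those of each member were found among 9522 genes with a mean log2 value of at least 8. Closeness is the root mean square distance on the log2 scale over the 6 arrays, given as a description. For Vim they were Slc9a9 (0.0928) and Nrros (0.10), for Sparc Sned1 (0.0889) and Septin4 (0.112), and for S100a4 Ube2f (0.0556) and Ghitm (0.0597). Dimmer members had no such close partner, but their own mean log2 values lay under 8, so no equally dim gene was a candidate. Their distances therefore cannot show whether they lack like genes. Tnc was closest to Klrk1 and Cyyr1 (0.366 and 0.412), Dcn to Rbm38 and Cdc25b (0.293 and 0.295), and Postn to Slc22a21 and Cavin2 (0.270 and 0.290). For Fbln1 they were Hey2 and Cxcl2 (0.626 and 0.642), for Thy1 Lrp5 and Tmem150a (0.257 and 0.311), for Lum Mul1 and Pim1 (0.421 and 0.498) and for Mfap4 Agps and Mettl13 (0.421 and 0.470).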

How the data were processed

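The authors deposited 1 intensity per probe set and array on a linear scale, per the file's values. The trimmed mean, with 2% taken off each end, was 1000.3 to 1000.4 on all 6 arrays. The software behind the values was not given in the sources used here. From 31099 probe sets, 57 controls were left out. Symbols came from the platform annotation, checked by gene identifier against RefSeq (GRCr8). A gene with several probe sets was represented by the one with the highest mean log2 value.

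log2(intensity + 16) was fitted with limma 3.58.1 in R 4.3.3 (lmFit, eBayes, two-sided, 6 arrays, no covariate), with Benjamini-Hochberg adjustment over 31042 probe sets and no filter on low values. All members and their probe sets are named, and from each other list up to 4 genes with the largest difference past the threshold. Members and lists were chosen with earlier results of these data known. Alternatives were other pseudocounts, median centring, quantile normalization, a filter on dim probe sets, an intensity trend, a block and leaving out each array. Array number limits the precision.

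The study's text speaks of 3 pairs, and the titles number the arrays of each fraction 1 to 3. Deviations of same-numbered arrays from their fraction means correlated at 0.0350 to 0.0605 over all probe sets and at 0.135 to 0.272 over those with a mean log2 value above 8, while differently numbered arrays stayed at 0.0122 or below. No label says which arrays form a pair. Deviations from a fraction mean cancel out within the fraction, so the low values of differently numbered arrays are not separate support for the numbers. The ages given for the arrays numbered 1 also differ, 6 weeks for IMCD and 10 weeks for nonIMCD. The pairing is thus not settled. Values with the replicate block stand beside each call of a named gene that it changed.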

Additional observations from a re-analysis of the deposited data

How the results depend on the processing

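The differences of Vim, both Sparc probe sets and S100a4 kept their direction and their call under every alternative run, and Tnc kept both except under the replicate block. Of 166 values of member probe sets under the alternatives, 142 kept direction and side of the threshold, 14 newly passed, 1 no longer passed and 9 changed sign. The count of member probe sets lower in IMCD was 7 in place of 4 with a pseudocount of 64 (15.4% of all probe sets were lower there) and with an intensity trend (16.8%), 6 with dim probe sets left out, which removes Lum, Postn and Mfap4 (19.6%), 5 with the replicate block (9.64%), and 4 to 6 without 1 array (8.53% to 10.4%), against 13.4% as reported. The count higher stayed at 1 under every alternative. Over all probe sets the calls numbered 6826, and 4824 with the replicate block (2993 lower, 1831 higher). Without 1 array they numbered 4313 to 5469, the lowest without nonIMCD replicate 1 and 4366 without IMCD replicate 1. The sign changes were in probe sets near the floor that did not pass. Fbln1 (1385452_at) gave 0.10 under median centring and quantile normalization and -0.83 to 0.26 without 1 array. Lum gave -0.14 to 0.93 and Mfap4 -0.82 to 0.28 without 1 array. The cause was not tested. For the other lists the scalings, the block and leaving out IMCD replicate 1 were chosen after seeing the data. The replicate block changed no other call of a member than those of Tnc, Dcn and Postn. Signals near the negative controls limit what can be said of Lum, Postn, Mfap4, Thy1 and Fbln1.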
